A study of Bos indicus x Bos taurus with 17 samples.

Results

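The genes described here are 6 ubiquitin ligase genes known from skeletal muscle (FBXO40, FBXO32, FBXO30, TRIM63, TRIM54 and TRIM55) and 2 insulin receptor substrate genes (IRS1 and IRS2). They were chosen by symbol, and each was found once among the 21048 genes of the liver table and of the muscle table. The RNA-seq libraries came from skeletal muscle and liver of 6 bovine fetuses at about day 105 of gestation. All were F1 fetuses of Nelore (Bos taurus indicus) and Holstein (Bos taurus taurus) cattle. The Control-AI group (fetuses 2 and 4) was conceived by artificial insemination. The ART-Normal group (fetuses 1, 2, 3 and 4) was produced in vitro, an assisted reproductive technology (ART). The study describes the group as similar in body weight to the controls and lists weights for fetuses 1, 2 and 3 only. No fetus of either group is described as treated or genetically altered, the labels do not say which muscle was sampled, and the numbers 2 and 4 name different fetuses in the 2 groups. Of the ART-Normal fetuses, number 4 is in the labels but is not among those the study lists.

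Muscle proteins are broken down in large part by the proteasome after ubiquitin ligases have tagged them. FBXO32 (atrogin-1), FBXO30 (MUSA1) and FBXO40 encode F-box proteins, the subunits that bind the substrate in SCF ligases built on SKP1 and cullin 1. TRIM63 (MuRF1), TRIM55 (MuRF2) and TRIM54 (MuRF3) encode RING-finger ligases that sit on the sarcomere or on microtubules of muscle cells. FBXO32 and TRIM63 are known for their rise in wasting muscle, where FOXO transcription factors act when insulin or IGF signaling falls. IRS1 and IRS2 are docking proteins that the insulin and IGF1 receptors phosphorylate and that pass the signal to PI3K and AKT, and FBXO40 is known as a muscle ligase that marks IRS1 for breakdown.

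Total counts ranged from 12433300 to 23578362 in muscle and from 18454088 to 43339598 in liver. Levels are given as CPM, the counts scaled to the size of the library with TMM factors from all 12 libraries, and levels of different genes are ranked as CPM per kb of the gene span. The 8 skeletal muscle markers summed to between 15095 and 25045 CPM in the muscle libraries and to at most 32.3 CPM in liver. The 8 hepatocyte markers summed to between 29821 and 337485 CPM in liver and to at most 362 CPM in muscle, so both tissue labels fit their markers. Both libraries of Control-AI 2 stood apart. Its liver had 337485 CPM of hepatocyte markers against 29821 to 57438 CPM in the other 5 livers, and it had the highest muscle marker sum among livers (32.3 CPM against 6.88 to 9.52 CPM). Its muscle had 362 CPM of hepatocyte markers against 25.6 to 64.1 CPM in the other 5. Erythroid markers also differed, at 23916 CPM in its liver against 5082 to 6145 CPM in the other livers and at 88.4 CPM in its muscle against 202 to 651 CPM in the other muscles. Values that this fetus moved by more than 1.5 times are given with and without it.

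The first question was how the members differ between muscle and liver of the same fetuses. Of the 8 members, 5 were higher in muscle, 2 were lower in muscle, and IRS1 did not pass the test. In the same test 79.0% of the 15037 genes tested passed an adjusted p of 0.05 or lower, with 39.7% higher and 39.3% lower in muscle, so a call between these tissues is common. TRIM63, TRIM54, TRIM55 and FBXO40 entered the test through their muscle counts alone, so the direction of those 4 calls followed from the filter, and only FBXO32, FBXO30, IRS1 and IRS2 had at least 10 counts in every library of both tissues. The 6 libraries of a tissue did not overlap those of the other for 6 of the 8 members (4 higher and 2 lower in muscle), beside 63.1% of all genes tested (31.8% higher and 31.3% lower). In bulk tissue, fewer cells of a type and less RNA per cell cannot be told apart.

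**Figure D1:**
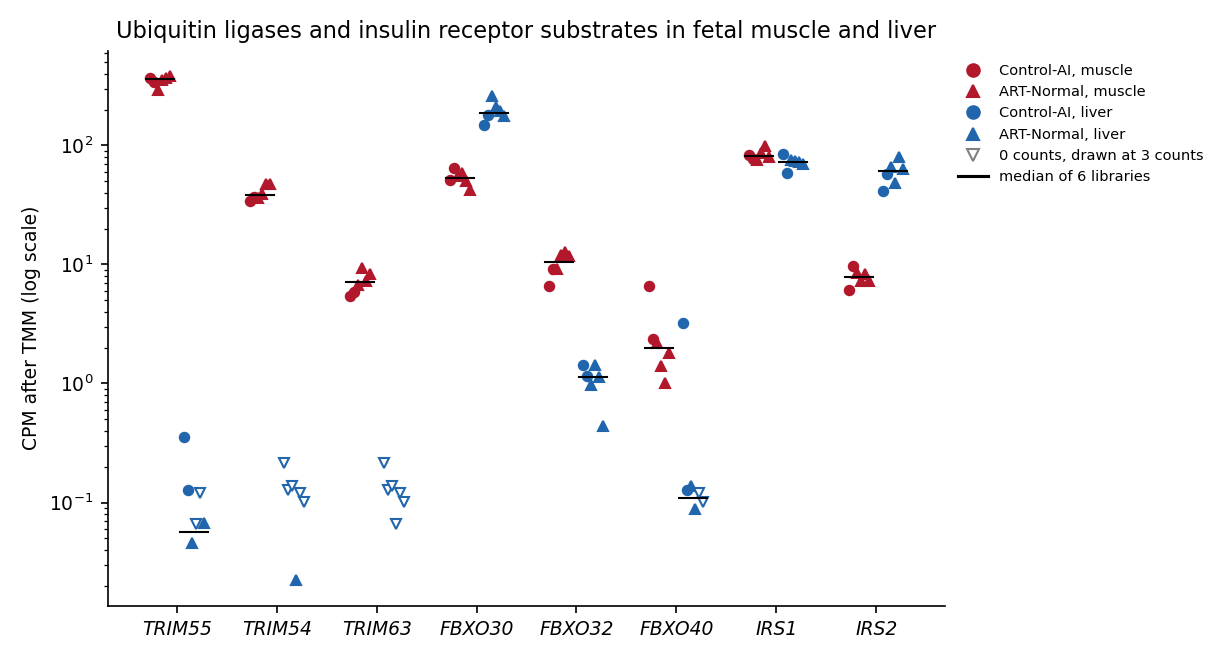
Level of each member gene (x axis) in CPM after TMM scaling (y axis, log scale) in 6 muscle libraries (red) and 6 liver libraries (blue), with circles for Control-AI, triangles for ART-Normal, black lines for medians above 0, and open triangles for libraries with 0 counts, drawn at the level of 3 counts. The 3 TRIM genes are separated by tissue, FBXO30 and IRS2 are higher in liver, and the IRS1 points of the tissues overlap.

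The muscle RING-finger genes had almost no reads in liver. TRIM55 (gene ID 616362, chromosome 14, 30469084 to 30516190, plus strand, ARS-UCD1.2), whose product binds titin in the sarcomere, had 367 and 339 CPM in the Control-AI muscles 2 and 4. The ART-Normal muscles 1 to 4 had 292, 356, 365 and 383 CPM of TRIM55. These 6 values lie close together, and both controls fall inside the range of the ART-Normal fetuses. In liver TRIM55 had 11 counts in all, of which 5 were in Control-AI 2, and the highest liver level was 0.356 CPM. The pooled ratio of muscle to liver was 5006 (95% exact interval 2798 to 10029), and 8308 (3817 to 22640) without Control-AI 2. These intervals and the limits at 3 counts cover counting error only. By edgeR's quasi-likelihood test the tissue difference had an adjusted p of 2.13e-12. TRIM55, TRIM54, TRIM63 and FBXO40 entered that test through muscle alone, so their adjusted p-values add no support for the direction.

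TRIM54 (gene ID 535320, chromosome 11, 72337035 to 72358693, minus strand), which encodes a ligase that stabilizes microtubules in muscle cells, had 34.2 and 37.0 CPM in the Control-AI muscles 2 and 4. In the ART-Normal muscles 1 to 4 it had 36.4, 39.2, 47.3 and 47.4 CPM. Here the 2 highest values were ART-Normal and the lowest was a control, but the groups overlapped. The livers together held 1 count of TRIM54, in ART-Normal 2, against 5000 counts in muscle, a pooled ratio of 6418 (95% exact interval 1151 to 253554; adjusted p = 8.72e-12, edgeR).

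TRIM63 (gene ID 528912, chromosome 2, 127020871 to 127035930, plus strand), the ligase that ubiquitinates thick filament proteins, was the least abundant of the RING-finger genes in muscle. It had 5.38 and 5.83 CPM in Control-AI 2 and 4, and 6.78, 9.35, 7.33 and 8.36 CPM in ART-Normal 1 to 4. Both controls lay below all 4 ART-Normal fetuses. No liver library had a read of TRIM63, and 3 counts in a liver library would be 0.0665 to 0.214 CPM. Against that limit in its own liver, each fetus had a level at least 25.2-fold higher in muscle, and each of the fetuses other than Control-AI 2 at least 45.4-fold (adjusted p = 4.86e-08, edgeR). The fitted fold changes of these 3 genes depend on the prior count that stands in for missing liver reads and are not given.

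Among the RING-finger genes of muscle, TRIM55 took 74.4% to 80.1% of the summed CPM per kb, TRIM54 took 16.3% to 20.9%, and TRIM63 took 3.68% to 6.21%. That order was the same in all 6 fetuses. The share is of RNA over gene spans that include introns, so it also depends on how intron reads and span lengths differ between the genes.

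The F-box genes did not share a tissue pattern. FBXO32 (gene ID 513776, chromosome 14, 16306194 to 16361061, plus strand), the atrogin-1 gene, had 6.64 and 9.14 CPM in the Control-AI muscles 2 and 4 and 9.08, 12.02, 12.6 and 11.7 CPM in ART-Normal 1 to 4. In liver it had 1.42 and 1.16 CPM in Control-AI 2 and 4 and 0.969, 1.44, 1.13 and 0.439 CPM in ART-Normal 1 to 4. Every muscle library lay above every liver library. The log2 difference between muscle and liver was 3.07 (SE 0.29; adjusted p = 4.64e-07, edgeR), an 8.37-fold higher level in muscle.

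FBXO30 (gene ID 539435, chromosome 9, 83063376 to 83085477, minus strand) encodes MUSA1, a ligase subunit that BMP signaling holds low in muscle. It was the F-box member that was higher in liver. Muscle had 51.5 and 64.9 CPM in Control-AI 2 and 4 and 55.8, 59.0, 50.0 and 42.6 CPM in ART-Normal 1 to 4. Liver had 150 and 179 CPM in Control-AI 2 and 4 and 258, 209, 196 and 175 CPM in ART-Normal 1 to 4. The lowest liver library was above the highest muscle library, and the log2 difference between muscle and liver was -1.75 (SE 0.13; adjusted p = 3.38e-08, edgeR). Still, FBXO30 took 83.5% to 91.1% of the CPM per kb of the 3 F-box genes in muscle, against 4.33% to 9.56% for FBXO32 and 2.04% to 12.2% for FBXO40. Control-AI 2 had the lowest share of FBXO30 and of FBXO32 and the highest of FBXO40, and in the other 5 fetuses these shares were 86.3% to 91.1%, 5.17% to 9.56% and 2.04% to 4.14%.

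FBXO40 (gene ID 613597, chromosome 1, 66092226 to 66111702, plus strand), the ligase subunit for IRS1, had few reads. In the Control-AI muscles 2 and 4 it had 6.64 and 2.37 CPM, and in ART-Normal 1 to 4 it had 2.18, 1.39, 1.01 and 1.80 CPM, from 23 to 90 counts per library. In liver it had 45 counts (3.21 CPM) in Control-AI 2, 3 counts each in Control-AI 4 and ART-Normal 1, 4 counts in ART-Normal 2, and 0 counts in ART-Normal 3 and 4. Control-AI 2 was the highest library in both tissues, and its liver level exceeded 5 of the 6 muscle levels. The log2 difference between muscle and liver was 3.09 (SE 0.73; adjusted p = 0.00166, edgeR), and 4.39 (SE 0.70) without Control-AI 2. The pooled ratio was 6.67 (95% exact interval 4.99 to 9.08) with all fetuses and 25.8 (13.7 to 54.6) without Control-AI 2.

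Some reads of other muscle genes were present in the liver of Control-AI 2. The 8 muscle markers summed to 32.3 CPM there, against 6.88 to 9.52 CPM in the other livers. Of these markers 0 were without a read there, and 3 in each other liver. TRIM54 and TRIM63 were at 0 there and TRIM55 was at 0.356 CPM, while the muscle of the same fetus had 34.2, 5.38 and 367 CPM of them. The gene closest to FBXO40 is HCLS1, which ends 375 bp beyond the end of FBXO40 on the opposite strand. HCLS1 had 13.3 CPM in the liver of Control-AI 2 and 15.8 to 20.1 CPM in the other livers. In muscle it had 7.30 CPM in Control-AI 2 and 7.99 to 13.4 CPM in the other fetuses. In liver, 137 genes had a tail-to-tail neighbor within 1000 bp that was at least 16 times as abundant, FBXO40 among them. Their median log2 ratio between Control-AI 2 and the other libraries was 0.28, against -0.05 for the 10635 genes with no gene within 1000 bp. In muscle the 144 such genes, without FBXO40, had 0.32, against -0.07 for 10445 genes. These sets were not matched for level, and what set their ratios apart was not tested. The part of muscle tissue or of neighboring reads in the FBXO40 values was not tested. The handling of strand in the counting is not given in the sources used here.

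The insulin receptor substrates diverged between the tissues. IRS1 (gene ID 538598, chromosome 2, 114924912 to 114993390, minus strand) had 82.7 and 76.6 CPM in the Control-AI muscles 2 and 4 and 75.5, 87.1, 99.2 and 80.4 CPM in ART-Normal 1 to 4. Liver had 84.8 and 58.8 CPM of IRS1 in Control-AI 2 and 4 and 74.8, 73.8, 72.3 and 69.4 CPM in ART-Normal 1 to 4. The tissues overlapped: the highest liver value, in Control-AI 2, was above 4 of the muscle values. The log2 difference between muscle and liver was 0.20 (SE 0.11; 95% interval -0.03 to 0.43; adjusted p = 0.0989, edgeR). This call depended on the setting. With the fetus as a block the difference was 0.21 (adjusted p = 0.0461), without Control-AI 2 it was 0.28 (adjusted p = 0.0434), and scaled by library size alone it was 0.38 (adjusted p = 0.00255), while without Control-AI 4 it was 0.09 (adjusted p = 0.490).

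IRS2 (gene ID 100300012, chromosome 12, 84625081 to 84655685, minus strand), the substrate best known for its control by insulin and fasting in liver, had 6.05 and 9.75 CPM in the Control-AI muscles 2 and 4. The ART-Normal muscles 1 to 4 had 8.48, 7.29, 8.29 and 7.21 CPM of IRS2. The Control-AI livers 2 and 4 had 41.0 and 57.2 CPM, and the ART-Normal livers 1 to 4 had 65.8, 47.9, 80.0 and 63.7 CPM. All livers were far above all muscles, with a log2 difference between muscle and liver of -2.82 (SE 0.17; adjusted p = 5.07e-09, edgeR).

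**Figure D2:**
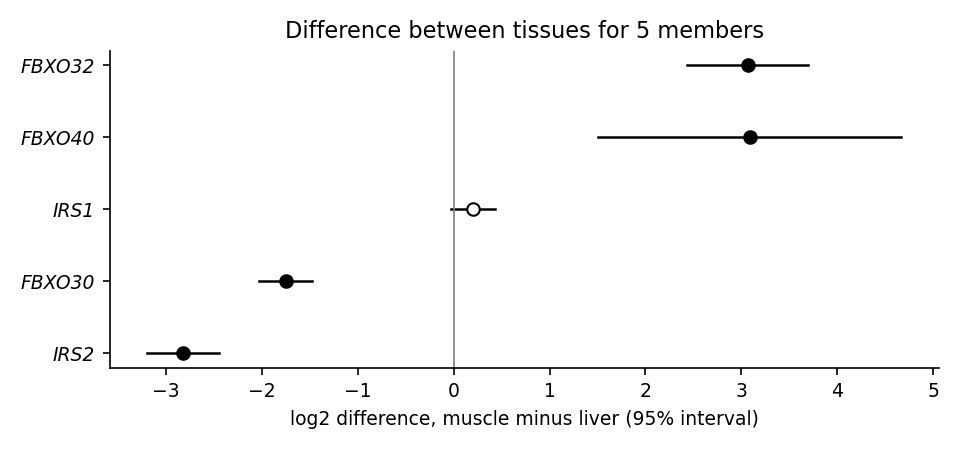
Log2 difference of muscle minus liver (x axis) with 95% intervals (lines) for 5 members, where filled points had an adjusted p of 0.05 or lower. Of these, 4 had at least 10 counts in every library of both tissues. FBXO40 entered the test through muscle alone and had 45 of its 55 liver counts in Control-AI 2. FBXO32 and FBXO40 lie above 0, FBXO30 and IRS2 lie below 0, and the IRS1 interval of -0.03 to 0.43 includes 0.

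The balance of both substrates was measured as the share of IRS1 in the counts of IRS1 and IRS2, which does not depend on scaling between libraries but weighs reads without regard to span. In muscle the share was 93.2% and 88.7% in Control-AI 2 and 4 and 89.9%, 92.3%, 92.3% and 91.8% in ART-Normal 1 to 4. In liver it was 67.4% and 50.7% in Control-AI 2 and 4 and 53.2%, 60.6%, 47.5% and 52.2% in ART-Normal 1 to 4. The muscle share was higher in 6 of 6 fetuses. In the liver of Control-AI 2, the liver library with the fewest reads, the 95% Wilson interval of the share ran from 65.2% to 69.5%, for counting error only. The mean was 91.4% ± 1.69 (SD, n = 6) in muscle and 55.3% ± 7.36 (SD, n = 6) in liver, a difference of 36.1 ± 6.60 percentage points. The exact paired permutation test over 6 fetuses gave a two-sided p of 0.03125, the smallest it allows. Per kb of gene span, the shares were 82.6% in muscle and 35.9% in liver, so that IRS2 exceeded IRS1 in liver on that scale.

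**Figure D3:**
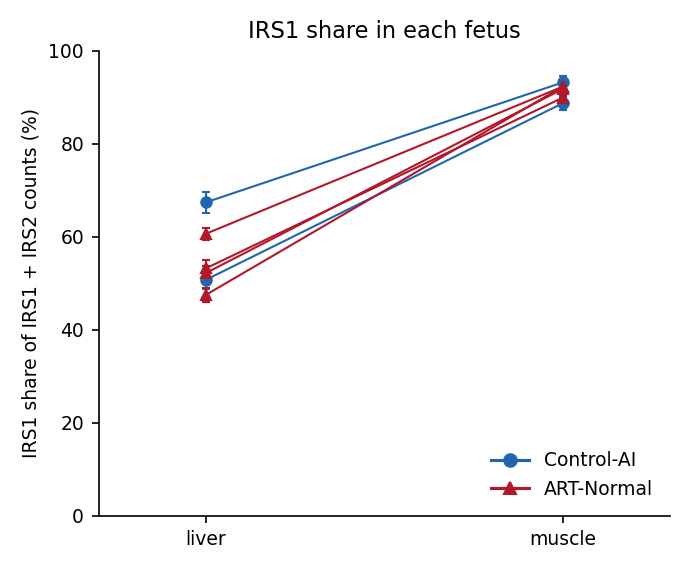
Share of IRS1 in the summed counts of IRS1 and IRS2 in percent (y axis, from 0) in liver and muscle (x axis), with 1 line per fetus and 95% Wilson intervals (counting error only) as bars, circles for Control-AI and triangles for ART-Normal. All 6 lines rise from liver (47.5% to 67.4%) to muscle (88.7% to 93.2%).

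In order of CPM per kb of span, the muscle levels were TRIM55 (7.44), FBXO30 (2.44), TRIM54 (1.86), IRS1 (1.22), TRIM63 (0.476), IRS2 (0.256), FBXO32 (0.186) and FBXO40 (0.132), as means of 6 libraries. The ranges of FBXO30 and TRIM54, of IRS2 and FBXO32, and of FBXO32 and FBXO40 overlapped. In liver the order was led by FBXO30 (8.80), IRS2 (1.94) and IRS1 (1.06), whose ranges did not overlap. FBXO40 (0.0305) and FBXO32 (0.0199) followed, and that order rested on Control-AI 2, since the other 5 livers had 0 to 0.00711 of FBXO40 and 0.0080 to 0.0263 of FBXO32. The RING-finger genes were last. These orders depend on the gene spans, which include introns. By mean CPM in muscle, IRS1 (83.6) was above FBXO30 (53.9) and TRIM54 (40.2). On that scale FBXO32 (10.2) was above IRS2 (7.84) and TRIM63 (7.17).

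The second question was whether the members differed between fetuses conceived in vitro and by artificial insemination. In muscle 7 of the 8 members reached 5 CPM in each library of at least 1 group and were tested, and 0 of the 7 passed an adjusted p of 0.05 or lower. Over all 11695 genes tested in muscle, 1 gene passed, which is 0.00855% (ANKRD1, lower in ART-Normal), and an unadjusted p under 0.05 was found for 1075 genes (9.19%). In liver 3 of the 8 members were tested and 0 passed, beside 0 (0.0%) of 11304 genes in all, and 948 genes (8.39%) were under 0.05 before adjustment. Other tools called more genes (in muscle 120 by the likelihood ratio test and 106 by DESeq2, in liver 89 and 56), and no tested member was among them.

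Among the ligases that reached the filter in muscle, FBXO32 and TRIM63, known from muscle wasting, had the largest differences. FBXO32 had a log2 difference of ART-Normal minus Control-AI of 0.50 (SE 0.22; 95% interval 0.01 to 0.99; adjusted p = 0.528, edgeR), at an unadjusted p of 0.0456. For this gene the groups overlapped, since ART-Normal 1 (9.08 CPM) was below Control-AI 4 (9.14 CPM), and the difference ranged from 0.30 (Control-AI 2 left out) to 0.75 (Control-AI 4 left out). TRIM63 had a log2 difference of 0.48 (SE 0.22; 95% interval -0.01 to 0.98; adjusted p = 0.555), and its groups did not overlap. It was the only member of the 7 tested without overlap, beside 15.5% of all genes tested (9.12% higher and 6.37% lower in ART-Normal).

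The other ligases tested in muscle had smaller differences. TRIM54 had a log2 difference of 0.24 (SE 0.16; adjusted p = 0.707), TRIM55 of -0.03 (SE 0.15; adjusted p = 0.970) and FBXO30 of -0.18 (SE 0.16; adjusted p = 0.789). Their 95% intervals ran from -0.11 to 0.59, from -0.37 to 0.30 and from -0.55 to 0.18. Leaving out Control-AI 2 gave -0.33 for FBXO30, and leaving out Control-AI 4 gave -0.016.

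The muscle level of FBXO40 did not reach 5 CPM in each library of a group, and the gene was tested with a filter of 10 counts. The 4 ART-Normal fetuses (1.01 to 2.18 CPM) were below both controls (2.37 and 6.64 CPM). The nearest libraries were ART-Normal 1 with 54 counts and Control-AI 4 with 58 counts. Of the genes tested in muscle at 5 CPM, which leave FBXO40 out, 6.37% were lower without overlap and 15.5% were apart in either direction. The log2 difference of FBXO40 was -1.49 (SE 0.47; adjusted p = 0.326, edgeR). The size of this difference came mostly from 1 control. It was -0.55 (SE 0.51; adjusted p = 0.962) without Control-AI 2 and -2.06 (SE 0.45; adjusted p = 0.00712) without Control-AI 4, when Control-AI 2 was the only control left and was assumed to vary like the ART-Normal group. With no filter the difference in muscle was -1.48 (SE 0.46; adjusted p = 0.237), and the liver test, with 45 of its 55 counts in Control-AI 2, had an adjusted p of 0.261.

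Among the insulin receptor substrates in muscle, IRS1 had a log2 difference of 0.08 (SE 0.14; 95% interval -0.23 to 0.40; adjusted p = 0.901) and IRS2 of -0.04 (SE 0.23; 95% interval -0.55 to 0.47; adjusted p = 0.97). With Control-AI 2 left out the IRS1 difference was 0.15, and with Control-AI 4 left out it was 0.02. For IRS2 the 2 controls were the lowest and the highest muscle library, and the difference turned from -0.33 without Control-AI 2 to 0.35 without Control-AI 4.

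In liver, IRS2 had a log2 difference of 0.37 (SE 0.21; 95% interval -0.10 to 0.85; adjusted p = 0.593) and FBXO30 of 0.33 (SE 0.17; 95% interval -0.05 to 0.72; adjusted p = 0.589). The groups overlapped for both genes and for IRS1, beside 18.5% of genes without overlap (9.84% higher and 8.7% lower in ART-Normal). The IRS2 difference was 0.18 and the FBXO30 difference 0.23 without Control-AI 2, whose liver had the lowest level of both genes and the highest sum of hepatocyte markers. The part of that library's composition in these differences was not tested. For IRS1 the 95% interval ran from -0.36 to 0.36 around a difference close to 0 (adjusted p = 0.999), with the 2 controls as the highest and the lowest liver library. FBXO32, tested in liver with the filter of 10 counts, had a log2 difference of -0.37 (SE 0.52; adjusted p = 0.827), which was -0.19 without Control-AI 2 and -0.62 to -0.12 over all leave-one-out fits.

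**Figure D4:**
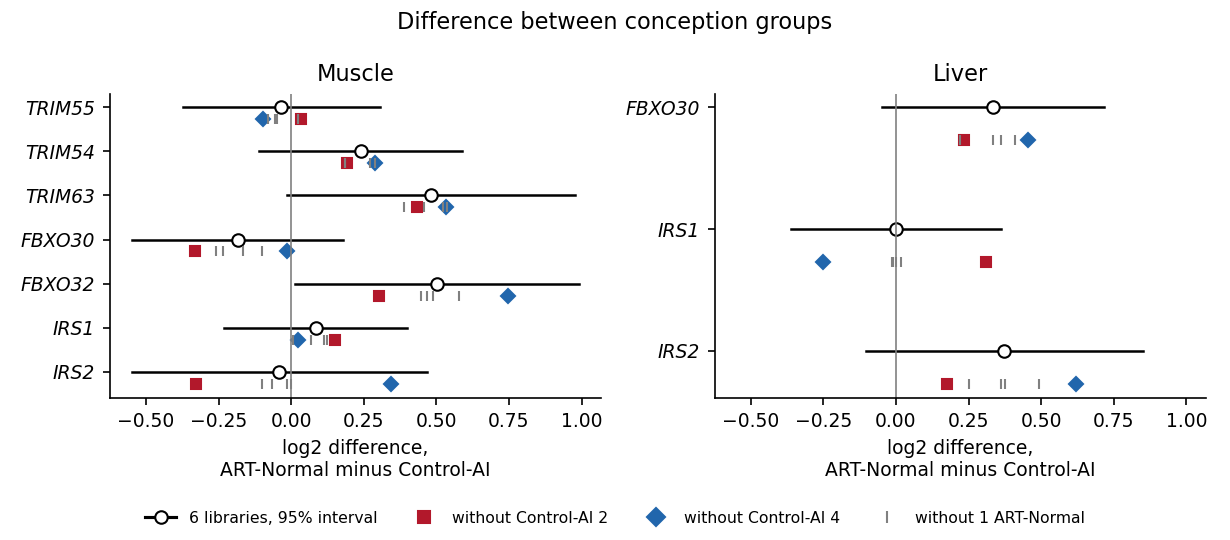
Log2 difference of ART-Normal minus Control-AI (x axis) for members tested in muscle (left) and liver (right), with open points and 95% intervals from all 6 libraries and, under each, the value without Control-AI 2 (red squares), without Control-AI 4 (blue diamonds) or without 1 ART-Normal fetus (grey ticks). Leaving out a control moved IRS2 in muscle from -0.33 to 0.35, while TRIM63 stayed between 0.39 and 0.54.

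Whether the difference between conception groups itself differed between muscle and liver was tested for the 4 members with at least 10 counts in every library of both tissues. The interaction was 0.87 for FBXO32 (SE 0.54; adjusted p = 0.930), -0.52 for FBXO30 (SE 0.25; adjusted p = 0.897), -0.42 for IRS2 (SE 0.32; adjusted p = 0.956) and 0.08 for IRS1 (SE 0.21; adjusted p = 0.987), on the log2 scale. For FBXO32 the interaction ranged from 0.48 (Control-AI 2 left out) to 1.26 (Control-AI 4 left out). None of the 4 passed, beside 0 (0.0%) of 15037 genes in all. At an unadjusted p under 0.05 there were 839 genes (5.58%), and the likelihood ratio test called 85 genes and DESeq2 called 39.

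Other genes of the same pathways were described between the tissues by lists of symbols, and where genes that did not pass are named, it is for that result. Over all 15037 genes tested, 39.7% were higher in muscle and 39.3% were lower. Of the receptors and adaptors around the IRS proteins, 15 of 16 were tested. Of these, 6 were higher in muscle, 6 were lower and SHC1, SOCS1 and SOCS2 did not pass. Their median log2 difference was 0.10, beside 0.004 over all genes. SH2B2, an adaptor of the insulin receptor, had a median of 39.6 CPM in muscle and 5.18 CPM in liver (log2 difference 3.03, SE 0.21). INPPL1, a lipid phosphatase that opposes PI3K, differed by 2.41 (SE 0.14), and IGF1R, the IGF1 receptor, by 1.32 (SE 0.14). Lower in muscle were GRB14, an inhibitor of the insulin receptor (-1.88, SE 0.39), the cytokine-induced inhibitor CISH (-1.80, SE 0.16) and the adaptor GRB2 (-0.86, SE 0.08).

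Of the 23 genes of PI3K, AKT and mTOR signaling, 14 were higher in muscle, 4 were lower and 5 did not pass. Beside them, 39.7% of all genes tested were higher and 39.3% were lower. The median log2 difference of the list was 0.41. The largest rises were those of TBC1D4, the AKT substrate that governs glucose transporter traffic (3.08, SE 0.10), the translation repressor EIF4EBP1 (2.43, SE 0.13) and the PI3K regulatory subunit PIK3R3 (2.096, SE 0.11). PI3K subunits also made up the largest falls, with PIK3CB at -1.61 (SE 0.13), PIK3CD at -0.99 (SE 0.21) and PIK3R1 at -0.33 (SE 0.08).

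Among 18 regulators of ligase transcription, 13 were higher in muscle, 4 were lower and HDAC4 did not pass, with a median log2 difference of 1.04. Across all genes tested, 39.7% were higher and 39.3% were lower. MYOG, the myogenic factor that can activate FBXO32 and TRIM63, had a median of 155 CPM in muscle and 1 count in the livers together. MSTN, which encodes myostatin, had 85.1 CPM and 10 liver counts, and TFEB, a transcription factor of lysosomal genes, differed by 1.75 (SE 0.22). MYOG and MSTN, counted among the 13, entered the test through muscle alone, so the direction of their calls followed from the filter. FOXO3, a known activator of both wasting ligases, was lower in muscle, with a median of 85.8 CPM against 427 CPM in liver (-2.17, SE 0.10), as were KLF15 (-2.89, SE 0.19) and the NF-kappa-B subunit RELA (-0.64, SE 0.11). The other FOXO genes of the list, given after their values were seen, were higher in muscle, FOXO1 by 0.65 (SE 0.11) and FOXO4 by 1.46 (SE 0.15).

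The 17 genes of the SCF core and of ubiquitin conjugation had 7 higher and 5 lower, while CAND1, SKP1, UBA1, UBE2D3 and UBE2M did not pass, with a median log2 difference of -0.12. The conjugating enzymes UBE2E1 (0.98, SE 0.10), UBE2D1 (0.93, SE 0.13) and UBE2L3 (0.81, SE 0.09) were higher in muscle, and UBE2J1, an enzyme of the endoplasmic reticulum, was lower (-1.06, SE 0.10). The polyubiquitin gene UBB was also lower in muscle (-0.85, SE 0.21), with a value that is uncertain because its repeats share sequence. Of 20 other ligases and deubiquitinases, 8 were higher, 4 were lower and 8 did not pass (median 0.26). Beside both lists, 39.7% of all genes tested were higher, 39.3% were lower and 79.0% were called in either direction. TRIM72, another muscle ligase for IRS1, had a median of 162 CPM in muscle and 2 liver counts in all. It entered the test through muscle alone, so the direction of its call followed from the filter. The receptor ligases CBLB (1.40, SE 0.10) and CBL (1.07, SE 0.10) were higher in muscle. FBXO31 (-1.35, SE 0.16), FBXO21 (-0.995, SE 0.09) and STUB1 (-0.76, SE 0.12) were lower.

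All 10 reported substrates of FBXO32 and TRIM63 were higher in muscle, and 8 of them by more than 4 on the log2 scale, beside 39.7% of all genes tested that were higher and 6.34% that were past 4. Those with almost no liver reads entered the test through muscle alone, so the direction of their calls followed from the filter. For them the shares over all genes are no measure of an excess. They are mostly sarcomere genes, such as MYL1 with a median of 1054 CPM in muscle and 19 liver counts in all, and the creatine kinase gene CKM with 587 CPM and 11 liver counts. MYOD1, the myogenic factor that FBXO32 can target, had 46.2 to 84.6 CPM in muscle and no read in liver. The median of this list is set by genes with few or no liver reads and is not given. In the conception comparisons and the interaction, 0 genes of any of these lists passed an adjusted p of 0.05 or lower.

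**Figure D5:**
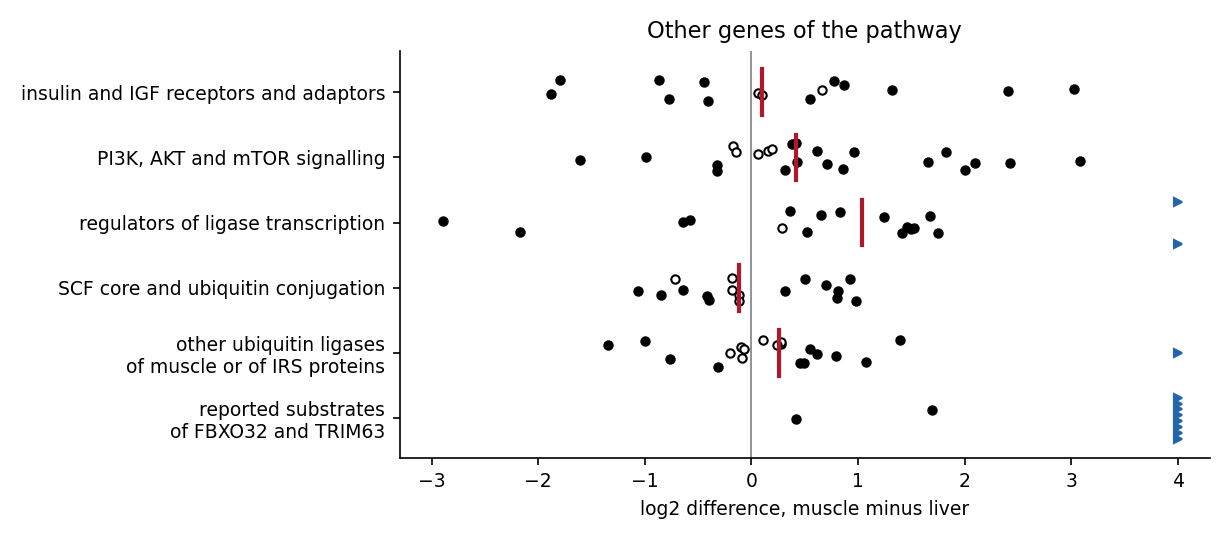
Log2 difference of muscle minus liver (x axis) for the tested genes of 6 pathway lists (y axis), where filled points had an adjusted p of 0.05 or lower, open points did not, blue triangles at 4 are genes past 4 and red bars are list medians up to 4. Of the FBXO32 and TRIM63 substrates 8 of 10 lie past 4, while the other lists spread to both sides of 0.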

How the data were processed

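RNA-seq of fetal muscle and liver was analysed from 12 libraries of 6 fetuses. The authors deposited raw read counts per gene, without normalization. The submitters' notes name HISAT2 2.1.0, featureCounts and ARS-UCD1.2, and the labels describe poly(A) selection and strand-specific libraries. Each listed length is the whole gene span, introns included. Of 13 count columns per tissue, 7 matched no label and were not used. The authors' comparison tables (log2 fold changes, log2 CPM, p-values) were not used.

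Counts were tested with edgeR 4.0.16 in R 4.3.3 (quasi-likelihood, TMM, Benjamini-Hochberg adjustment over all genes tested). Conception groups were compared within a tissue with no covariate, keeping genes that reached 5 CPM in every library of either group. Tissues were compared in 1 fit of 12 libraries, over genes with at least 10 counts in all libraries of a tissue. SE were derived from the log2 difference and F. Procedures were tested on simulated data. Tables and plots used Python 3.11.15, pandas 2.3.3, SciPy 1.17.1 and Matplotlib 3.10.9. Muscle and liver pair by fetus in the labels, and the main tissue fit had no fetus term. Deviations from group means correlated across 15037 genes at r = 0.06 to 0.26 in ART-Normal and 0.41 in the controls. With 2 controls the deviations mirror each other, so 0.41 is 1 value for the contrast of Control-AI 2 with Control-AI 4.

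The members and lists were chosen with earlier results of these data known. Reported genes were all members and, from each list, any gene that passed in a conception comparison and up to 3 rises and 3 falls between tissues, of which 1 is not reported here. For each member, the 2 genes with the smallest root mean square difference of centred log2 CPM were also found. Alternatives were RLE, upper quartile and library size scaling, the likelihood ratio test, DESeq2 1.42.0, other filters, ART-Normal 1 to 3 only, a replicate block and leaving out each library. Protein and promoter sequences were not used here.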

Additional observations from a re-analysis of the deposited data

How the results depend on the processing

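With 2 controls, precision is low, and the labels do not say whether litters or sires were shared. In the tissue comparison, 116 of 119 alternative values of the members kept their direction and their side of the threshold, and the exceptions were the 3 values of IRS1 given with it. The fetus as a replicate block changed no other call of a member. The numbers 2 and 4 do not pair ART-Normal with Control-AI (r across genes of 0.004 and -0.07 in muscle and 0.01 and -0.07 in liver), and with the number as a replicate block 90 genes were called in muscle and 6 in liver.

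In muscle, the 1 gene called between conception groups became 120 by the likelihood ratio test, 106 by DESeq2 and 0 with ART-Normal 1 to 3 only, and 0 to 1327 when 1 library was left out, the highest without Control-AI 4. In liver, 0 became 89, 56 and 2 under the same settings, 6 with library size alone, and 0 to 830 when 1 library was left out, again the highest without Control-AI 4. In the interaction, 0 became 85, 39 and 0 to 229. In the runs without Control-AI 4, Control-AI 2 was the only control, assumed to vary like the ART-Normal group. Library size alone moved the median log2 difference of all genes by 0.21 in the liver conception comparison, 0.17 in the tissue comparison and -0.20 in the interaction.

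Values near 0 changed sign. In muscle, TRIM55 was 0.0538 with the replicate block and -0.0964 to 0.0331 when 1 library was left out, and IRS2 was -0.33 to 0.35. In liver, IRS1 was 0.24 with library size alone, 0.0266 with no filter, 0.0076 with at least 10 counts, 0.0173 with ART-Normal 1 to 3 only, 0.0055 with the replicate block and -0.25 to 0.31 when 1 library was left out. The IRS1 interaction was -0.17 with library size alone and -0.18 to 0.26 when 1 fetus was left out. The cause was not tested. The IRS1 share differed by 34.4 to 38.2 points when 1 fetus was left out, with an exact p of 0.0625, the smallest that 5 pairs allow.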

Other observations

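IGF1R, chosen after its values were seen, separated the conception groups in both tissues without passing the adjusted test. This gene encodes the IGF1 receptor, which phosphorylates the IRS proteins. In muscle it had 115 and 156 CPM in Control-AI 2 and 4 and 217, 185, 324 and 257 CPM in ART-Normal 1 to 4 (log2 difference 0.84, SE 0.22; adjusted p = 0.316, edgeR). In liver IGF1R had 59.8 and 58.9 CPM in Control-AI 2 and 4 and 83.5, 100.3, 86.3 and 95.1 CPM in ART-Normal 1 to 4 (log2 difference 0.61, SE 0.13; adjusted p = 0.373, edgeR). The muscle and liver values come from the same fetuses. The groups did not overlap for 9.12% of muscle genes and 9.84% of liver genes in this direction. The share of genes apart in both tissues at once was not counted. PPARGC1A of the lists, also chosen after its values were seen, was higher in ART-Normal in muscle (0.67, SE 0.19; adjusted p = 0.343, edgeR) and liver (0.48, SE 0.14; adjusted p = 0.503, edgeR). The list gene with the smallest unadjusted p in muscle, TNFRSF12A, went the other way (-1.14, SE 0.20; adjusted p = 0.222, edgeR). The other list genes with an unadjusted p under 0.05 in muscle were higher. In liver AKT1, STUB1 and PIK3CD were lower at that level, and CBLB and FOXO3 were higher. None of them passed.

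The profile nearest to TRIM55 over the 12 libraries was that of MYPN, which encodes the sarcomere protein myopalladin, with a root mean square difference of 0.37 in centred log2 CPM, followed by PPP1R3A, a muscle glycogen phosphatase subunit, at 0.53. FBXO32 was nearest to LSMEM2 (0.31) and LOC101903477 (0.36), TRIM63 to LBX1 (0.18) and FOXD3 (0.22), and TRIM54 to DBX1 (0.30) and CCKAR (0.32). FBXO30 was nearest to HMMR (0.09) and DBT (0.10), IRS1 to DCAF10 and NCOA6 (both 0.10), and IRS2 to RGCC (0.16) and MATK (0.18). FBXO40 had no close profile, with MLLT11 at 0.79 and CCDC110 at 0.82. For genes with no liver reads, this measure is set mostly by the difference between the tissues. The difference between the tissues also enters it for FBXO32, FBXO30 and IRS2, which have liver reads. A near profile therefore does not show by itself that genes vary together between fetuses.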
